A study of Mus musculus with 6 samples.

Results

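The 35 cell cycle and proliferation genes described here are a fixed list of symbols. They were matched by Ensembl mouse identifier in a table of 35122 genes. The rule for membership is the symbol and uses no measured value, but the list was chosen with earlier results of these data known. All 35 were found, and all 35 passed the filter on low counts that left 13925 genes for testing. By the part of the cycle in which their products are best known to act, 13 belong to S phase, when DNA is copied, and 22 to G2 and mitosis, when the copied chromosomes are separated.

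The RNA came from adipocytes that floated to the top after epididymal fat was digested with collagenase, in male C57BL/6 mice on a standard chow diet, aged 10 to 11 months by the labels, although the study's text describes them as older. Control mice carried floxed alleles of the gene encoding the transcription factor PU.1 (PU.1 fl/fl, 3 mice). Mice with the same floxed alleles and a Cre recombinase driven by the adiponectin promoter and enhancer (AdipoqCre_PU.1 fl/fl, called aPU.1KO) made up the other group, also of 3 mice, with 1 library per mouse. The comparison asks how the RNA of the adipocyte fraction differs once PU.1 is deleted in cells that express adiponectin. Flotation is not a sort, so the fraction can hold other cells of the fat pad, and the floxed segment is a single exon of Spi1 while the counts are per gene.

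Dividing cells pass through an ordered programme of transcription. In late G1 and S phase, E2F factors switch on genes for building deoxynucleotides and for loading and running the MCM helicase that opens the DNA. In G2 and mitosis, FoxM1 and the MuvB complex act, often through the cell cycle genes homology region (CHR) and nearby CCAAT boxes, on genes for cyclins, mitotic kinases, spindle motors and centromere proteins. Mature adipocytes are regarded as non-dividing, while progenitors, endothelial cells and immune cells of the fat pad can divide.

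The libraries held 20550252 to 69283842 estimated counts, and control mouse 1 had the deepest. Levels are given as CPM, the counts of a gene in each 1e6 counts of the library after scaling by TMM factors. Spi1, which encodes PU.1, measured 24.3, 6.35 and 26.7 CPM in control mice 1 to 3 and 3.20, 1.22 and 4.17 CPM in the aPU.1KO mice. Its log2 fold change was -2.75 (SE 0.64), with an edgeR adjusted p of 0.0788. Every control lay above every aPU.1KO mouse, and control mouse 2 was the lowest control. Without control mouse 2 the log2 fold change was -3.17 and the edgeR adjusted p 0.0123. The 10 adipocyte markers were abundant in every library, with Adipoq at 2448 CPM or more, and summed to 41740 to 45592 CPM in controls and 51362 to 59518 CPM in aPU.1KO mice. The 14 macrophage markers summed to 545.6 to 1814 CPM in controls, lowest in control mouse 2, and to 277.9 to 379.4 CPM in aPU.1KO mice. Whether these RNAs came from macrophages in the fraction or from adipocytes was not tested.

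Most of the cell cycle genes had lower mean levels in the aPU.1KO mice, but no single gene passed the threshold across all genes. By edgeR's quasi-likelihood test, 0 of the 35 had a Benjamini-Hochberg adjusted p under 0.05, against 0.237% of all genes tested. The adjusted p ranged from 0.0722 for Tpx2 to 0.929 for Ccne2. At an unadjusted p under 0.05, 24 of the 35 were lower, against 13.7% of all genes tested, and 0 were higher, against 11.9%. DESeq2 placed 17 of the 35 under an adjusted p of 0.05, all lower, against 8.73% of all genes tested that were lower and 4.69% that were higher. In 18 of the 35, the highest aPU.1KO mouse lay below the lowest control, against 15.5% of all genes tested, and in 0 did the lowest aPU.1KO mouse lie above the highest control, against 16.7%.

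The fold changes had the same tilt. The log2 fold change, aPU.1KO over control, was below 0 for 32 of the 35 genes, against 48.0% of all genes tested, with Ccne1, Ccne2 and Mcm7 above 0. The median over the 35 was -1.07, and over all genes tested 0.01. It lay below -1 for 21 of the genes, 18 of them of G2 and mitosis, against 7.95% of all genes tested.

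**Figure D1:**
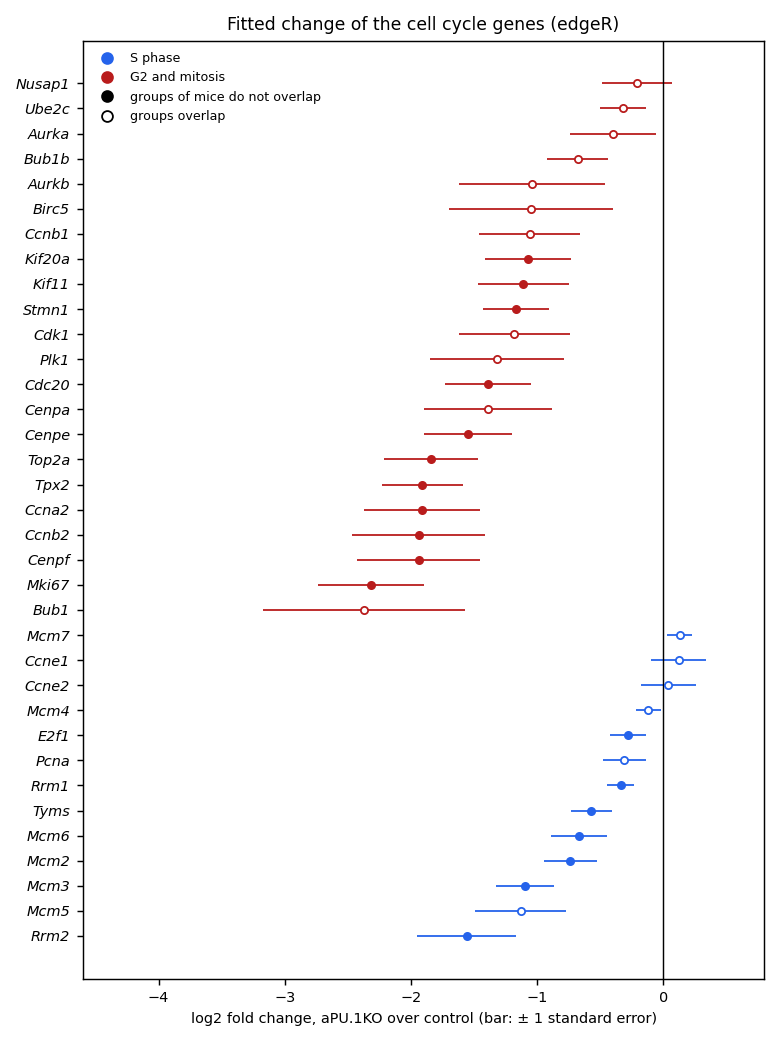
Log2 fold change, aPU.1KO over control, with its standard error for each of the 35 cell cycle genes, grouped by S phase and by G2 and mitosis; filled points mark genes in which the highest aPU.1KO mouse (n = 3) lay below the lowest control (n = 3). All 22 genes of G2 and mitosis lie left of 0, from -0.21 to -2.37, while the S phase genes run from -1.56 to 0.13.

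The controls were not alike. Control mouse 2 was the lowest control for 33 of the 35 genes, against 43.7% of all genes tested. Without it, 20 of the 35 had an edgeR adjusted p under 0.05, all lower, against 6.93% of all genes tested. Leaving out control mouse 1 or control mouse 3 instead brought none of the 35 under that adjusted p. At an unadjusted p under 0.05, 12 were lower without control mouse 1, against 8.10% of all genes tested. Without control mouse 2, 28 were, against 15.1%, and without control mouse 3, 14 were, against 10.3%.

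**Figure D2:**
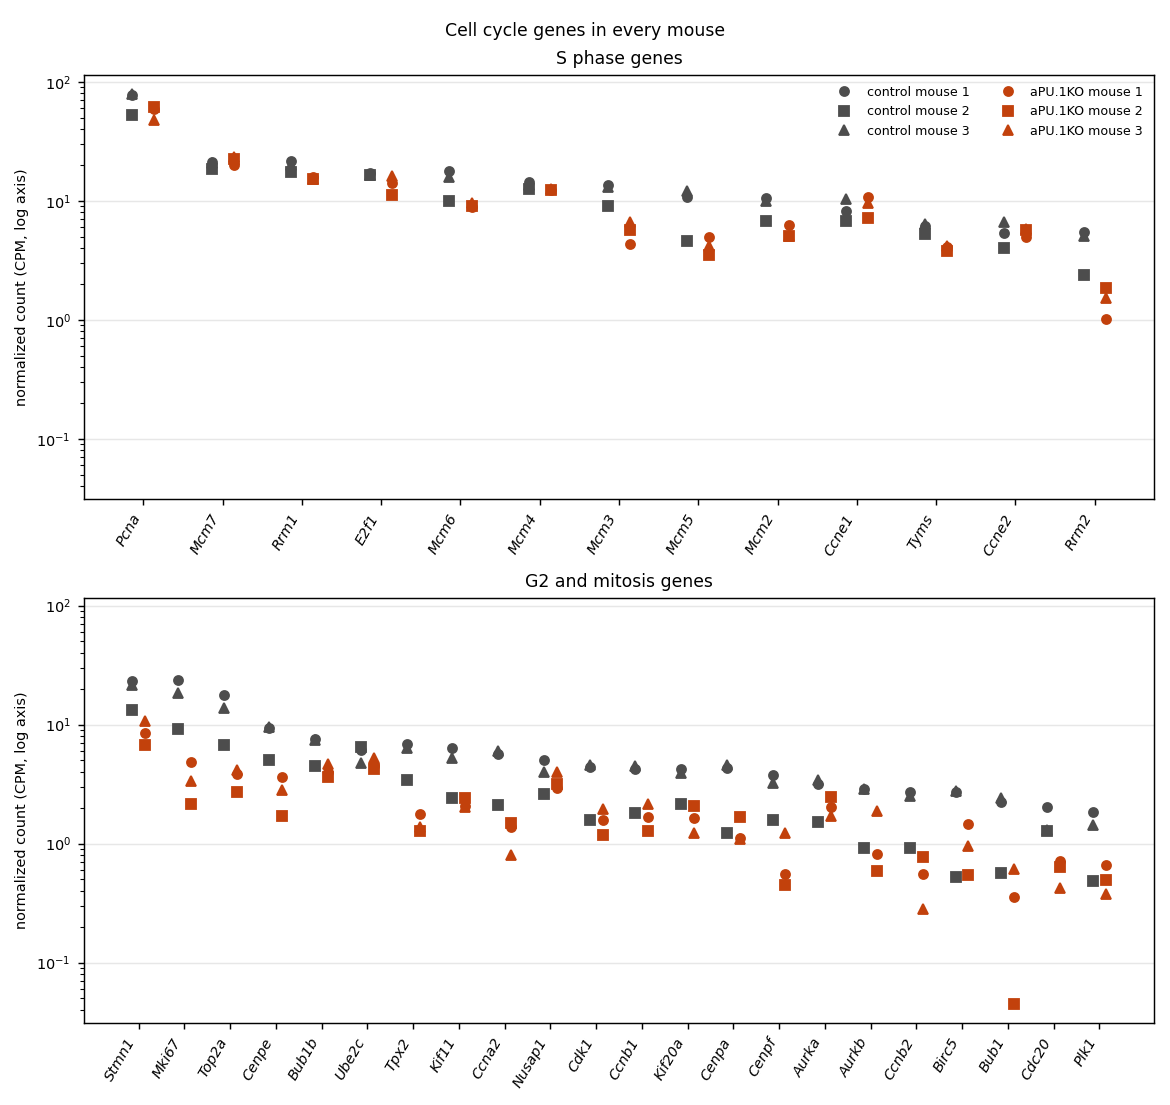
Level of each of the 35 cell cycle genes (CPM, log axis) in each of the 3 control and 3 aPU.1KO mice, 1 point per mouse. Control mouse 2 is the lowest control for 33 of the 35 genes, and the groups do not overlap in 18.

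The windows before 4 of these genes are printed because they hold the letters through which the mitotic and S phase programmes are known to act. They are RefSeq sequences on GRCm38.p6, each running from 250 bases before the RefSeq start to 30 bases into the transcript and written 5′ to 3′ on the gene's strand. The 30 bases after that start lie whole in a transcript of the GENCODE M21 annotation for Top2a and Mcm3, but in none for Mki67 and Ccnb2. Capitals mark CHR letters (TTTGAA or TTCGAA), E2F letters (TTTGGCGC, TTTCGCGC, TTTCCCGC or TTTGCCGC) and CCAAT boxes (CCAAT), searched on both strands. E2F letters can run into a CCAAT box, and TTCGAA reads the same on both strands. Mki67 lies at chr7:135716350-135716629, Top2a at chr11:99024160-99024439, Ccnb2 at chr9:70421525-70421804 and Mcm3 at chr1:20820283-20820562, all on the minus strand.
Mki67: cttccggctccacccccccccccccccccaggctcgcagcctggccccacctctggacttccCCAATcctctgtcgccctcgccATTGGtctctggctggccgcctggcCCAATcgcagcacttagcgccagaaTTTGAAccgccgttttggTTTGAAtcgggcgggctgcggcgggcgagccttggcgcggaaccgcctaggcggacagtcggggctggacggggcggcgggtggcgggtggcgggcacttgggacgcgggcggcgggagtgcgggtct
Top2a: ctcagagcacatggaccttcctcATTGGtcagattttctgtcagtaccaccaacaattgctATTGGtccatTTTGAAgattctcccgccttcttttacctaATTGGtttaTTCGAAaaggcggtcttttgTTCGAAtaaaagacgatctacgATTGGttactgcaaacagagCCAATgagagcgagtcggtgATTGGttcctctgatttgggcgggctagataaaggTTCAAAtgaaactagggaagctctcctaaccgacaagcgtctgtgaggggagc
Ccnb2: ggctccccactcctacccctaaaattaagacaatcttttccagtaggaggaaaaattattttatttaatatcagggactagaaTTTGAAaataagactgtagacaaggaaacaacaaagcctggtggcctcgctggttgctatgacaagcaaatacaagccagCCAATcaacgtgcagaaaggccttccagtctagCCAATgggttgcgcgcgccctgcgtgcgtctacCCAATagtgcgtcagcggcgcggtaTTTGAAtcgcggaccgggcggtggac
Mcm3: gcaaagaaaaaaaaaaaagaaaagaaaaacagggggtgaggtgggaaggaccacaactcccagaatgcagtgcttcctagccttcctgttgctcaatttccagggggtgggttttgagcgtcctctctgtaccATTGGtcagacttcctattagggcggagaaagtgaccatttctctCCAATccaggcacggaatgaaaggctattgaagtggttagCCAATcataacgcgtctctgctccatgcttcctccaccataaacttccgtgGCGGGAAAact

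The Mki67 window held CHR letters at positions -116 and -98 from the start, and CCAAT boxes at -188, -166 and -141. The Top2a window held CHR letters at 4 places and CCAAT boxes at 6. The Mcm3 window had no CHR letters, 3 CCAAT boxes and E2F letters at position 20. RefSeq windows were matched for 28 of the 35 genes, giving 29 windows, since Mcm7 has 2. CHR letters were in 11 of 17 windows of G2 and mitosis genes (64.7%) and 2 of 12 of S phase genes (16.7%), beside 18.4% of all 32851 windows of that length. E2F letters were in 4 of 12 S phase windows (33.3%) and 1 of 17 windows of G2 and mitosis genes (5.88%), beside 2.12% of all windows. CCAAT boxes were in 15 of 17 windows of G2 and mitosis genes (88.2%), in 9 of 12 S phase windows (75.0%) and in 36.1% of all windows. A match describes letters in the window and is not a measured binding site. Of the Mcm7 windows, 1 held E2F letters at 2 places and CHR letters once, and Mcm7 was among the 3 genes with a fold change above 0.

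Mki67, which encodes the chromosome surface protein Ki-67 used to mark dividing cells, had the second-lowest log2 fold change of the 35 genes, after the checkpoint kinase Bub1. It measured 23.6, 9.24 and 18.5 CPM in control mice 1 to 3 and 4.83, 2.17 and 3.36 CPM in the aPU.1KO mice. The groups did not overlap, and even control mouse 2 lay above the highest aPU.1KO mouse. The log2 fold change was -2.32 (SE 0.42), with an edgeR adjusted p of 0.0724 and a DESeq2 adjusted p of 4.33e-06. Top2a encodes the topoisomerase that untangles sister chromatids. It measured 17.6, 6.74 and 13.7 CPM in controls and 3.86, 2.71 and 4.12 CPM in aPU.1KO mice, again with no overlap. Its log2 fold change was -1.84 (SE 0.37), with an edgeR adjusted p of 0.0764.

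The A- and B-type cyclins and their kinase, which drive cells through G2 into mitosis, all had log2 fold changes below -1. Ccna2, encoding cyclin A2, measured 5.63, 2.10 and 5.99 CPM in controls and 1.37, 1.49 and 0.805 CPM in aPU.1KO mice, without overlap, and its log2 fold change was -1.91 (SE 0.46), edgeR adjusted p 0.0817. Ccnb2, encoding cyclin B2, measured 2.73, 0.919 and 2.50 CPM in controls and 0.559, 0.768 and 0.284 CPM in aPU.1KO mice. Its groups did not overlap either, and its log2 fold change was -1.94 (SE 0.53), edgeR adjusted p 0.098. For Ccnb1, encoding cyclin B1, and Cdk1, the kinase these cyclins activate, control mouse 2 lay within the range of the aPU.1KO mice. Their log2 fold changes were -1.06 (SE 0.40) for Ccnb1, edgeR adjusted p 0.161, and -1.18 (SE 0.44) for Cdk1, edgeR adjusted p 0.158. Without control mouse 2 they were -1.37 and -1.52, with edgeR adjusted p-values of 0.0379 and 0.0272. Control mouse 2 was the lowest control for both genes, so a larger change without it follows from its values. The E-type cyclins, which act earlier, at entry into S phase, gave another picture. Ccne1 measured 8.17, 6.70 and 10.4 CPM in controls and 10.7, 7.23 and 9.57 CPM in aPU.1KO mice, a log2 fold change of 0.12 (SE 0.22). For Ccne2 it was 0.04 (SE 0.22). The sign of both depended on single mice, and the groups overlapped throughout.

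The mitotic kinases differed in how far they stood apart. Bub1, a kinase of the checkpoint that holds cells until chromosomes attach to the spindle, had the lowest fold change of the 35 genes at -2.37 (SE 0.80), edgeR adjusted p 0.132. It measured 2.22, 0.569 and 2.42 CPM in controls and 0.356, 0.0452 and 0.616 CPM in aPU.1KO mice. The value in aPU.1KO mouse 2 is 1 count, and control mouse 2 lay below aPU.1KO mouse 3. Leaving out 1 mouse moved the log2 fold change of Bub1 to between -3.15 and -1.85. For Mki67 the range was -2.65 to -2.02, so the lowest rank of Bub1 depended on single mice. Bub1b, encoding the checkpoint protein BubR1, had a log2 fold change of -0.68 (SE 0.24). Plk1, a kinase of mitotic entry and spindle assembly, was at -1.32 (SE 0.53), and Aurkb, a kinase of the chromosomal passenger complex, at -1.04 (SE 0.58). Birc5, encoding survivin in the same complex, was at -1.05 (SE 0.65). Aurka, the kinase of spindle poles, stood nearest to 0 of the kinases at -0.40 (SE 0.34), with 3.15, 1.53 and 3.41 CPM in controls and 2.03, 2.44 and 1.71 CPM in aPU.1KO mice. In all of these, the level of control mouse 2 lay below at least 1 aPU.1KO mouse. Tpx2, which encodes the spindle assembly factor that activates Aurora A, did not share that overlap. It measured 6.80, 3.41 and 6.31 CPM in controls and 1.78, 1.27 and 1.37 CPM in aPU.1KO mice. Its log2 fold change of -1.91 (SE 0.32) had the lowest edgeR adjusted p of the 35 genes, 0.0722, and a DESeq2 adjusted p of 2.34e-05.

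Genes for spindle motors, centromere proteins and microtubule regulators had log2 fold changes from -1.94 to -0.21. Cenpe, encoding the kinetochore motor CENP-E, measured 9.27, 5.03 and 9.52 CPM in controls and 3.66, 1.72 and 2.79 CPM in aPU.1KO mice, a log2 fold change of -1.55 (SE 0.35), edgeR adjusted p 0.0786. Cenpf, a large kinetochore protein, had a log2 fold change of -1.94 (SE 0.49), and Cenpa, the histone H3 variant of centromeres, -1.39 (SE 0.51). Kif11, the motor that pushes spindle poles apart, had -1.11 (SE 0.36), and Kif20a, a motor of the central spindle, -1.07 (SE 0.34). Of these 5 genes, only Cenpa had overlapping groups. Nusap1, encoding a microtubule-binding spindle protein, stood apart from its neighbours. It measured 5.01, 2.63 and 3.97 CPM in controls and 2.95, 3.16 and 4.03 CPM in aPU.1KO mice, a log2 fold change of -0.21 (SE 0.28). Stmn1 encodes stathmin, which destabilises microtubules and is also made outside mitosis. It measured 23.4, 13.2 and 21.6 CPM in controls and 8.49, 6.78 and 10.7 CPM in aPU.1KO mice, without overlap, and its log2 fold change was -1.17 (SE 0.26), edgeR adjusted p 0.0783.

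The anaphase-promoting complex ends mitosis by marking cyclins and securin for destruction. Its activator Cdc20 measured 2.01, 1.27 and 1.31 CPM in controls and 0.712, 0.633 and 0.426 CPM in aPU.1KO mice, without overlap, with a log2 fold change of -1.39 (SE 0.34), edgeR adjusted p 0.0862. Ube2c, the ubiquitin-conjugating enzyme that works with the complex, measured 6.14, 6.48 and 4.76 CPM in controls and 4.47, 4.25 and 5.21 CPM in aPU.1KO mice. Its log2 fold change was -0.32 (SE 0.18), and it was the only G2 and mitosis gene in which control mouse 2 was the highest control.

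Among the S phase genes, the subunits of the MCM helicase differed in their fold changes. Mcm3 measured 13.7, 9.02 and 12.9 CPM in controls and 4.32, 5.65 and 6.68 CPM in aPU.1KO mice, a log2 fold change of -1.10 (SE 0.23), edgeR adjusted p 0.0766. Mcm5 measured 10.8, 4.60 and 12.1 CPM in controls and 4.93, 3.53 and 4.17 CPM in aPU.1KO mice, a log2 fold change of -1.13 (SE 0.36), with control mouse 2 inside the aPU.1KO range. Mcm2 and Mcm6 had log2 fold changes of -0.74 (SE 0.21) and -0.67 (SE 0.22) without overlap of the groups. Mcm4 and Mcm7 stood close to 0. Mcm4 ranged from 12.5 to 14.4 CPM in controls and from 12.2 to 12.6 CPM in aPU.1KO mice, a log2 fold change of -0.12 (SE 0.10). Mcm7 measured 21.2, 18.3 and 20.9 CPM in controls and 20.1, 22.3 and 23.5 CPM in aPU.1KO mice, a log2 fold change of 0.13 (SE 0.10).

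In the helicase the 6 subunits form a ring with 1 copy of each, so their RNAs were also set against each other within a mouse. The ratio of Mcm3 to Mcm7 counts was 0.645, 0.492 and 0.620 in controls and 0.215, 0.253 and 0.284 in aPU.1KO mice. Even the lowest control lay well above the highest aPU.1KO mouse, control mouse 2 included, and the mean log2 ratio differed by -1.22. The difference in mean log2 ratio to Mcm7 was -1.14 for Mcm5, -0.84 for Mcm2, -0.75 for Mcm6 and -0.24 for Mcm4. Mcm7 had the highest fold change of the 6 subunits and was chosen as the reference after its values were seen, so the sign of these differences follows from the choice, the 5 ratios share a denominator, and no test is given. A ratio shows unequal change, not which of its members changed.

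**Figure D3:**
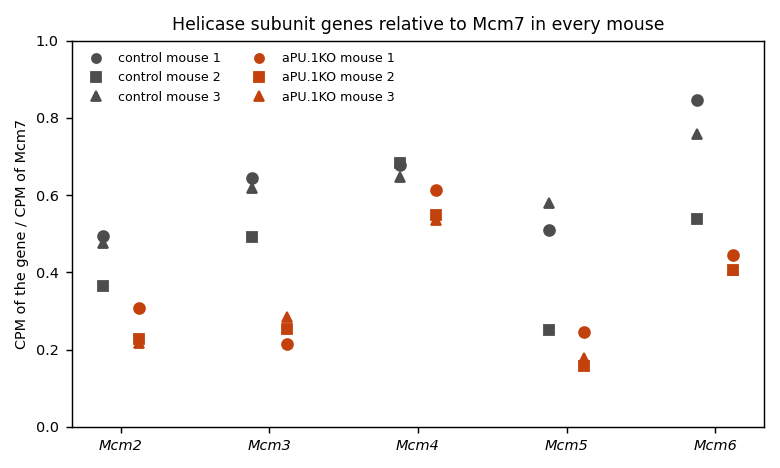
Ratio of the counts of Mcm2, Mcm3, Mcm4, Mcm5 and Mcm6 to those of Mcm7 in each control and aPU.1KO mouse (n = 3 each), 1 point per mouse. The 5 ratios share Mcm7, the subunit of highest fold change, as denominator, so that all lie lower in the aPU.1KO mice follows from that choice, with the largest difference in mean log2 ratio for Mcm3 and the smallest for Mcm4.

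The enzymes that supply deoxynucleotides differed in their fold changes. Rrm2, the subunit of ribonucleotide reductase made in dividing cells, measured 5.47, 2.36 and 5.04 CPM in controls and 1.02, 1.85 and 1.52 CPM in aPU.1KO mice, a log2 fold change of -1.56 (SE 0.39), edgeR adjusted p 0.0868. Its partner subunit Rrm1 measured 21.6, 17.3 and 19.8 CPM in controls and 15.9, 15.1 and 15.3 CPM in aPU.1KO mice, a log2 fold change of -0.34 (SE 0.11). Tyms, thymidylate synthase, had a log2 fold change of -0.57 (SE 0.16). None of the 3 had overlapping groups. Pcna, the sliding clamp of DNA polymerases, which also serves DNA repair, had overlapping groups, with 77.0, 52.7 and 79.1 CPM in controls and 58.6, 61.5 and 48.1 CPM in aPU.1KO mice. Its log2 fold change was -0.31 (SE 0.17), and -0.49 without control mouse 2. E2f1, which encodes a transcription factor of the S phase programme, ranged from 16.5 to 17.2 CPM in controls and from 11.3 to 16.1 CPM in aPU.1KO mice, a log2 fold change of -0.28 (SE 0.14).

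Set side by side per kilobase of exon, since longer genes collect more reads, 8 of 13 S phase genes and 2 of 22 G2 and mitosis genes averaged above 2 CPM per kb in controls. The length counts every annotated exon of a gene, so genes with long extra isoforms can come out lower, and these counts depend on it. There Pcna averaged 29.0 CPM per kb, E2f1 5.31, Mcm7 4.55 and Mcm4 3.75. The 2 of G2 and mitosis were Stmn1, at 10.1 CPM per kb, and Ube2c, at 2.23, while Mki67 averaged 1.70, Top2a 1.41 and Cenpf 0.185.

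The 13 S phase and 22 G2 and mitosis genes gave different sums. The S phase genes summed to 229.3, 166.0 and 229.1 CPM in controls and 166.2, 164.3 and 162.1 CPM in aPU.1KO mice, so that control mouse 2 was level with the aPU.1KO mice. The G2 and mitosis genes summed to 149.8, 70.3 and 134.5 CPM in controls and 50.6, 41.7 and 52.9 CPM in aPU.1KO mice, with no overlap. The ratio of the mean sums, aPU.1KO to control, was 0.789 for S phase and 0.410 for G2 and mitosis, and without control mouse 2 it was 0.716 and 0.341. The median log2 fold change was -0.34 for S phase and -1.25 for G2 and mitosis. At an unadjusted p under 0.05, 7 of 13 S phase genes and 17 of 22 G2 and mitosis genes were lower, beside 13.7% of all genes tested. Without control mouse 1 these counts were 3 and 9, beside 8.10%, and without control mouse 3 they were 5 and 9, beside 10.3%. The difference between these sets was not tested. Fewer dividing cells in the fraction and less of these RNAs per cell cannot be told apart in bulk RNA.

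**Figure D4:**
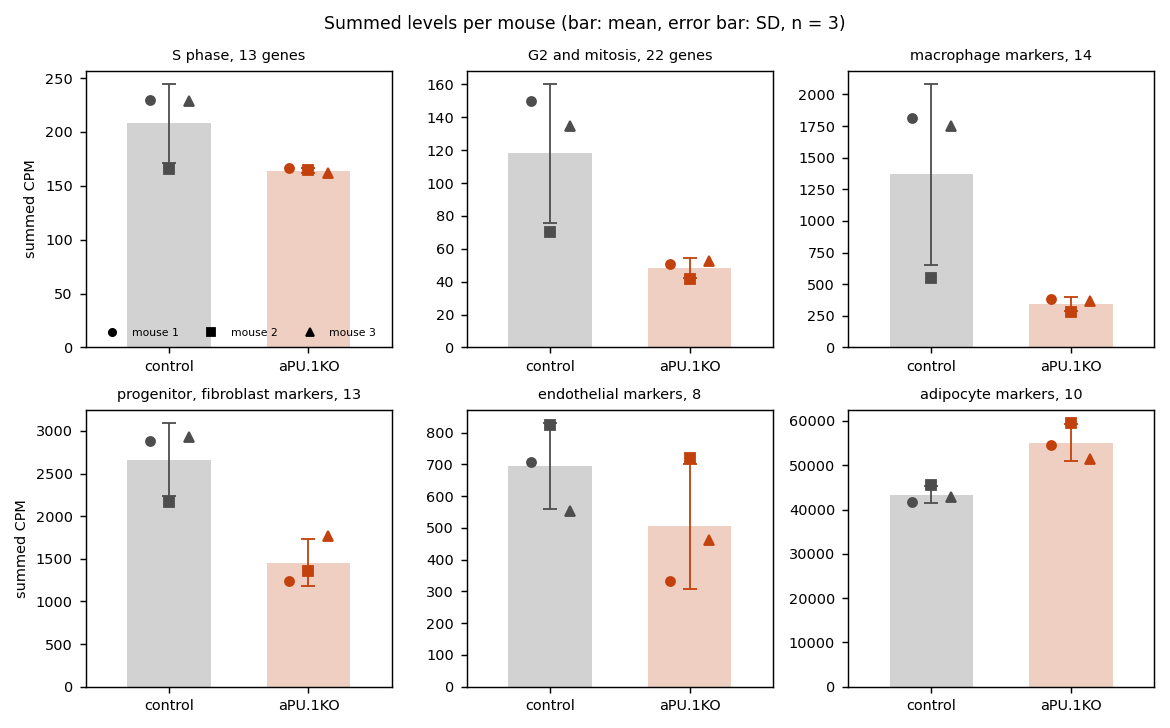
Summed level (CPM) of the S phase genes, the G2 and mitosis genes and marker lists of other cell types in each control and aPU.1KO mouse (n = 3 each), with 1 point per mouse, bars at the group mean and error bars of 1 SD. Control mouse 2 is the lowest control for both cell cycle sums and for the macrophage and the progenitor and fibroblast sums, and the highest for the endothelial and adipocyte sums.

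Markers of macrophages and of adipose progenitors and fibroblasts were mostly lower in the same mice. Of the 14 macrophage markers, 12 had an unadjusted p under 0.05 and a lower level, beside 13.7% of all genes tested, with Cd163 and Mertk the exceptions, and none was at 0. Their sum measured 1814, 545.6 and 1749 CPM in controls and 379.4, 277.9 and 364.0 CPM in aPU.1KO mice, a ratio of means of 0.249. Of 13 adipose progenitor and fibroblast markers, 10 were lower, and their sum was 2885, 2169 and 2934 CPM in controls and 1239, 1356 and 1768 CPM in aPU.1KO mice. Control mouse 2 was the lowest control for both lists, as it was for the T and NK cell, B cell and plasma cell, and neutrophil lists. Of 8 endothelial markers, 2 were lower (1 without control mouse 1 or 2, 3 without control mouse 3), with sums of 554.4 to 823.3 and 334.0 to 718.4 CPM, and control mouse 2 was the highest there. Of 10 adipocyte markers, 7 were higher, beside 11.9% of all genes tested, and 1, Lep, was lower (0 without any 1 of the control mice). At an adjusted p under 0.05, 0 were higher by edgeR and 7 by DESeq2, beside 4.69% of all genes tested by DESeq2. The part of these cells in the cell cycle result was not tested.

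RNA of other cell types was also measured. The 10 T and NK cell markers summed to 3.46 to 7.26 CPM in controls and 2.13 to 2.31 CPM in aPU.1KO mice. Of these, Cd3e, Trbc2, Nkg7 and Klrb1c were at 0 in at least 1 aPU.1KO mouse, and 3 of the 10 passed the filter. At an unadjusted p under 0.05, 1 of the 3 was lower (0 without control mouse 1), beside 13.7% of all genes tested. The 8 neutrophil markers summed to 18.1 to 36.5 CPM in controls and 11.7 to 17.9 CPM in aPU.1KO mice, nearly all of it S100a8, with Retnlg at 0 in all 6 libraries. Elane, the other neutrophil marker that passed the filter, was higher instead, at 0.394 to 0.714 CPM in controls and 0.995 to 1.22 CPM in aPU.1KO mice. The germ cell genes Prm1 and Tnp1 were at 0 in all 6 libraries, and the sum of the 8 male germ cell markers, 73.98 to 118.1 CPM in controls and 24.3 to 127.7 CPM in aPU.1KO mice, was nearly all Sycp3. The 7 B cell and plasma cell markers summed to 783.8 to 1116 CPM in controls and 691.9 to 831.4 CPM in aPU.1KO mice, nearly all of it Ighm. Mesothelial markers (5.08 to 21.3 and 7.72 to 10.2 CPM) and erythroid markers (393.1 to 534.2 and 248.4 to 783.7 CPM) overlapped between the groups. Hepatocyte markers summed to 40.2 to 62.1 CPM in controls and 18.8 to 24.1 CPM in aPU.1KO mice, most of it Alb. All 7 of the hepatocyte markers tested were lower at an unadjusted p under 0.05 without overlap of the groups, and 2, Apoa1 and Ttr, had an edgeR adjusted p under 0.05. Apoa1 measured 3.37 to 4.38 CPM in controls and 0 to 0.136 CPM in aPU.1KO mice. The part of these lists in the cell cycle result was likewise not tested.

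Other genes of the cell cycle were taken from wider lists of the same pathways, written with earlier results of these data known. Of 51 other G2 and mitosis genes tested, 46 had a log2 fold change below 0, beside 48.0% of all genes tested. Their median was -0.87. At an unadjusted p under 0.05, 28 were lower and 2 higher, beside 13.7% and 11.9% of all genes tested, and 15 were lower without control mouse 1, beside 8.10%. Knl1, a scaffold of the kinetochore, was the lower gene of smallest p, at -2.07 (SE 0.39), with 2.78, 1.71 and 1.67 CPM in controls and 0.356, 0.407 and 0.710 CPM in aPU.1KO mice. Pttg1, encoding securin, which holds back the separation of chromatids, was the higher one, at 0.34 (SE 0.09). Bub3, a checkpoint protein and the most abundant of the list, was at -0.14 (SE 0.09). Of 43 other S phase genes tested, 30 had a log2 fold change below 0, beside the same 48.0%, with a median of -0.22. At an unadjusted p under 0.05, 9 were lower and 1 higher, while leaving out control mouse 1, 2 or 3 gave 3, 16 or 4 lower genes, beside 8.10%, 15.1% and 10.3% of all genes tested. Tk1, the thymidine kinase of S phase cells, was the lower gene of smallest p, at -2.02 (SE 0.44), with 4.86, 1.93 and 5.63 CPM in controls and 1.02, 0.814 and 1.23 CPM in aPU.1KO mice. The clamp loader subunit Rfc4 was the higher one, at 0.66 (SE 0.15), with 5.54, 5.25 and 4.24 CPM in controls and 7.91 to 8.0 CPM in aPU.1KO mice, and the clamp loader subunit Rfc1, the most abundant, was at 0.14 (SE 0.08).

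The regulators upstream of these genes had medians near 0, and their counts are to be read beside the 13.7% of all genes tested that were lower and the 11.9% that were higher. Of 10 G1 cyclins and kinases, 2 had an unadjusted p under 0.05, both lower, with a median log2 fold change of -0.04. Ccnd1, the cyclin D1 that answers to growth factors, measured 27.3, 25.2 and 21.9 CPM in controls and 9.10, 14.7 and 13.1 CPM in aPU.1KO mice, a log2 fold change of -1.01 (SE 0.19), edgeR adjusted p 0.0729. Control mouse 2 lay among the other controls here. Ccnd2, the most abundant of that list, was at -0.13 (SE 0.14), and Cdk7, which activates other cell cycle kinases, at 0.13 (SE 0.08). Of 13 cell cycle inhibitors, 1 was lower and 0 higher, with a median of 0.05. The lower one, Cdkn1a, encodes p21 and measured 127, 95.3 and 122 CPM in controls and 88.5, 46.5 and 63.4 CPM in aPU.1KO mice, a log2 fold change of -0.79 (SE 0.24). Among the inhibitors, Btg2, an antiproliferative factor, was at 0.64 (SE 0.32) and Cdkn2c, encoding p18, at 0.41 (SE 0.18), both with overlapping groups. Of 16 E2F, MuvB and FoxM1 factors tested, 2 were lower and 2 higher, with a median of 0.02. Foxm1, the activator of mitotic genes, was among the lower ones, with 3.69, 2.28 and 3.57 CPM in controls and 1.37, 0.768 and 1.23 CPM in aPU.1KO mice, a log2 fold change of -1.51 (SE 0.32), edgeR adjusted p 0.0775. Rbbp4, a histone-binding subunit of MuvB, was among the higher ones at 0.39 (SE 0.11). In these 3 lists, leaving out a single mouse moved the number of lower genes to between 1 and 4.

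**Figure D5:**
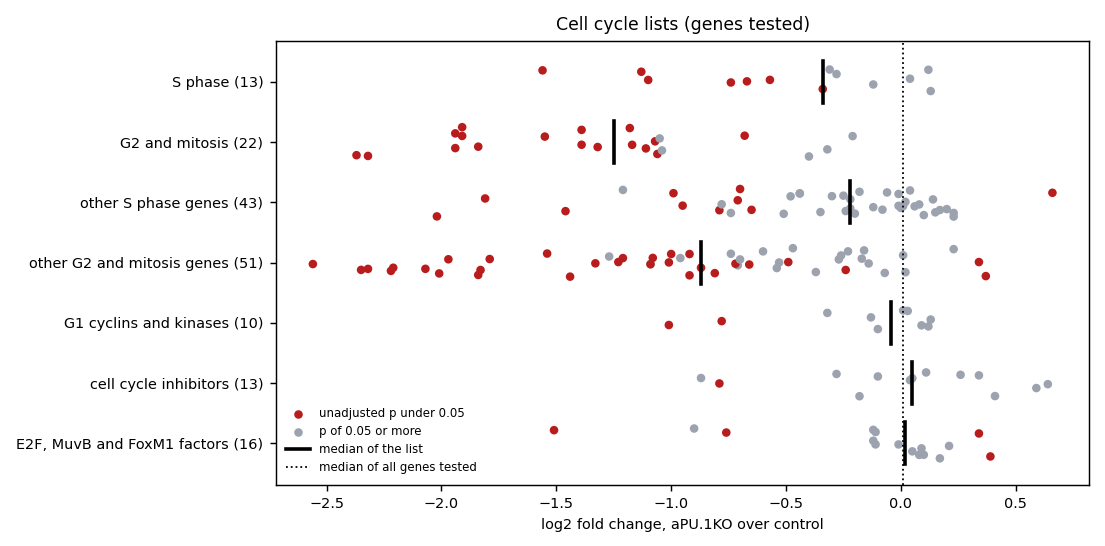
Log2 fold change, aPU.1KO over control, of every gene tested in each cell cycle list, with the number of genes in parentheses, the median of each list, the median of all genes tested (dotted) and genes with an unadjusted p under 0.05 in red. The lists of G2 and mitosis genes lie lowest, with medians of -1.25 and -0.87, and the G1, inhibitor and factor lists centre near 0.

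Some of the counts are less certain because genes share sequence. The exons of 7 of the 35 genes overlap those of a protein-coding gene on the opposite strand over 1.4% to 29.3% of their length, most for Kif20a with Cdc23, and the strand setting of the libraries was not given in the sources used here. Ube2c with Tnnc2, Ccne2 with Ints8 and Ccna2 with Exosc9 are in the same position, as are, of the other genes named, Ccnd1 with LTO1 over 23.4% of its exons, Rfc4 with the far more counted Eif4a2 over 12.7% and the germ cell marker Sycp3 with Chpt1 over 52.2%. Mcm7, the denominator of the helicase ratios, overlaps Ap4m1 over 7.3% and Cops6 over 1.4% of its exons, and both had more counts. Processed pseudogenes nearly identical to Ccnb1, Mcm7, Pcna and Stmn1 had at most 6 counts each over all 6 libraries. Tyms, Cenpf, Birc5, Kif11 and Mcm5 share short stretches of sequence with unrelated transcripts, some with far higher counts, so their levels are also uncertain.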

How the data were processed

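RNA of the adipocyte fraction was sequenced in 6 libraries, 1 per mouse. The authors quantified reads with Salmon, using its mapping validation option, and summed transcripts to genes, and the deposited values are estimated counts, all whole numbers. The submitters' processing notes also name FastQC and GRCm38, while the Salmon version, annotation and strand setting are not given in the sources used here. Gene symbols came from the identifiers by GENCODE M21.

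Genes were kept by edgeR's filterByExpr (minimum count 10). The main test was edgeR 4.0.16 (R 4.3.3), quasi-likelihood, TMM, 3 control against 3 aPU.1KO mice, no covariate, Benjamini-Hochberg adjustment over 13925 genes, threshold 0.05. SE is that of the log2 fold change. DESeq2 1.42.0, limma 3.58.1 (voom), RLE factors, other filters, thinning of the deepest library and leaving out each mouse were alternatives. The scripts were tested on simulated data. P-values weigh the difference between the groups against the spread between mice.

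All 35 genes are named. From each wider list the most abundant gene and the lower and higher gene of smallest unadjusted p are named, and Spi1. The genes and all lists, 5 wider cell cycle lists and 11 marker lists, were chosen with earlier results of these data known. Sequence sharing was searched with BLAST 2.17.0 (95% identity over 100 bases or more).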

Additional observations from a re-analysis of the deposited data

How the results depend on the processing

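No paired analysis was possible because the labels give the control and aPU.1KO mice no shared replicate number, and the numbers 1 to 3 used here only name the mice in order of accession. The study describes its controls as littermates, but no label ties a control to a particular aPU.1KO mouse. The count of the 35 cell cycle genes with an adjusted p under 0.05, 0 as reported, was 2 with no filter on low counts (Mki67 at 0.0491 and Tpx2 at 0.0481), 17 with DESeq2, and 0 to 20 on leaving out 1 mouse, 20 without control mouse 2. The count lower at an unadjusted p under 0.05, 24 as reported, was 12 to 28 on leaving out 1 mouse, with 12, 28 and 14 for control mice 1, 2 and 3 in turn. The median log2 fold change, -1.07, was -1.39 to -0.89 over the same omissions. The ratio of summed levels, aPU.1KO to control, was 0.716 to 0.831 for S phase and 0.341 to 0.473 for G2 and mitosis. Signs turned for Ccne1 (-0.027 without control mouse 2, -0.016 without aPU.1KO mouse 1, up to 0.29 without control mouse 3), for Ccne2 (-0.032 with control library 1 thinned, -0.14 without control mouse 2, -0.001 without aPU.1KO mouse 3, up to 0.22 without control mouse 3) and for Nusap1 (0.02 without control mouse 1, down to -0.43 without control mouse 2). The causes were not tested. With RLE factors, limma-voom or the newer edgeR fit, no gene of the 35 changed its side of the threshold or its sign. A filter of 10 counts in every library left 31 of the 35 genes, and Bub1 rests on 1 count in aPU.1KO mouse 2, so depth limits the genes of lowest level.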
